A study of Saccharomyces cerevisiae with 22 samples.

Results

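Expression profiles of 2 temperature-sensitive alleles of *PCF11*, *pcf11-2* and *pcf11-ts2*, were taken as the 2 arrays whose labels name these alleles, of 22 arrays in the series. On each array the RNA of the mutant was hybridized together with a common wild type reference. In *pcf11-2* the mutant RNA carried Cy5 and in *pcf11-ts2* Cy3, and each allele had 1 array from a single inoculated culture. Both strains grew in SC, a synthetic complete medium, with glucose as carbon source to early mid-log phase, at a temperature that is permissive for the alleles and was the same for all strains. The labels give BY4742 (MATalpha) as the background of every strain and of the reference, while the strain list of the study places *pcf11-2*, *pcf11-ts2* and *sen1-1* in BY4741 (MATa). For comparison, *sen1-1*, a temperature-sensitive allele of a helicase gene, had 2 SC arrays, and 7 deletion mutants (*lrp1*Δ, *rrp6*Δ, *rtt103*Δ, *set2*Δ, *eaf3*Δ, *rco1*Δ and *ctk1*Δ) had 14 SC arrays, all against the same reference. A further 4 arrays, of *ctk1*Δ and of the RNA polymerase II mutant *rpb1*-S2A in YPD medium, entered only the estimates of spread and dye effect and the median over profiles. A high-throughput robot protocol was named for the RNA of the *pcf11* and *sen1-1* arrays, but for the mutant RNA of only 3 of the deletion mutants.

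Pcf11p is a subunit of cleavage factor IA, which takes part in cutting and polyadenylating mRNA precursors and in ending transcription behind protein-coding genes. It binds the tail (CTD) of the largest subunit of RNA polymerase II when this is phosphorylated on Ser2, and it is essential for growth. Short noncoding RNAs, such as small nucleolar RNAs (snoRNAs), are terminated by another complex, Nrd1-Nab3-Sen1 (NNS), and Pcf11p has been linked to that early pathway as well. The arrays were made to compare mutants of CTD-binding and termination factors by the genes whose RNA levels they change.

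Values are log2 ratios of mutant over reference for 6373 features, of which 5311 are named genes. An array value is the ratio on 1 array, and a fitted ratio is the limma estimate with the dye effect of that gene taken out. A feature is said to rise or fall at a Benjamini-Hochberg adjusted p under 0.05 over all features and a fold over 1.7, a log2 ratio of 0.766. With 1 array per allele, the standard error (SE) of an allele was taken from the spread between arrays of the other mutants. The p-values therefore leave out the spread between cultures of the same allele, and all fitted values of the alleles rest on n = 1 array each.

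The quality of both arrays was similar. The median SD between the 2 spots of a probe was 0.028 in *pcf11-2* and 0.027 in *pcf11-ts2*, and 95.2% to 98.5% of features exceeded the background in a channel. Genes of mating type and auxotrophy set both strains apart from the reference. All 7 a-specific genes rose (median 3.04 and 3.41), all 4 alpha-specific genes fell (median −4.60 and −4.82), *LYS2* rose (3.02 and 2.93) and *MET17* fell (−4.88 and −4.56). By limma 0 of these genes differed between the alleles, where 3 a-specific genes and 1 alpha-specific gene passed an unadjusted p under 0.05. They are not described further, nor are *HMRA1*, *MATALPHA1* and the pheromone response genes, but all of them are part of the counts over all features.

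The RNA of *PCF11* itself was lower than in the reference in both alleles. The array value of *PCF11* was −1.04 in *pcf11-2* and −1.19 in *pcf11-ts2*. It was 0.35 and 0.10 in *sen1-1*, and ran from −0.14 through a median of 0.19 to 0.56 over the 14 deletion arrays. Both alleles thus lay below all other SC arrays. Fitted ratios were −0.99 and −1.24 (SE 0.14, limma adjusted p = 1.37e-04 and 6.03e-05), or 1.98-fold and 2.37-fold lower than the reference. Spots of *PCF11* had an intensity of 206 for *pcf11-2* against 287 for its reference, and of 134 for *pcf11-ts2* against 317. The mean of the alleles was lower than *sen1-1* by a log2 difference of −1.34 (SE 0.14, adjusted p = 9.38e-06) and lower than the deletion mutants by −1.31 (SE 0.10, adjusted p = 1.27e-06).

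Of the 20 subunits of the cleavage and polyadenylation machinery (CPF/CF), 1 rose and 1 fell in each allele. Among all features 5.54% and 3.17% rose and 2.09% and 0.863% fell, so 1 rise among 20 genes is near the share at large. The fall was that of *PCF11*, and the rise that of *RNA14*, which encodes another subunit of cleavage factor IA. *RNA14* had array values of 0.75 and 0.98, against 0.93 and 0.71 in *sen1-1* and up to 1.17 in the deletion arrays, and so overlapped both. Its fitted ratios were 0.87 and 0.86. With the median of the 12 profiles as baseline, in place of the reference, its mean over the alleles was 0.28 and did not pass. The other subunits did not pass in either allele, and ran from *SYC1* (−0.63 and −0.46) to *REF2* (0.69 and 0.29). By limma, 0 genes rose or fell in either allele among 3 genes of the exonuclease that follows RNA polymerase II after cleavage, 21 genes of NNS, the exosome and TRAMP, and 12 genes of CTD kinases and phosphatases. An unadjusted p under 0.05 was reached for 1, 5 and 4 of them in *pcf11-2* and for 0, 2 and 3 in *pcf11-ts2*. 

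In *pcf11-2*, 353 features rose (5.54% of all) and 133 fell (2.09%). In *pcf11-ts2*, 202 rose (3.17%) and 55 fell (0.863%). Of these, 171 rises (2.68%) and 42 falls (0.659%) were common to both alleles, and 0 features rose in one allele and fell in the other. Without the lists of a-specific, alpha-specific, auxotrophy and pheromone response genes, 345 features rose and 128 fell in *pcf11-2*. The numbers for *pcf11-ts2* were 191 and 50, and those in common 163 and 37. *HMRA1* and *MATALPHA1* are not on these lists and remain in the counts. The common features made up 48.4% of the rises of *pcf11-2* and 84.7% of those of *pcf11-ts2*, and 31.6% and 76.4% of the falls. Since both alleles were set against 1 reference RNA and share a strain background, these shares are given without a test. The median log2 ratio of the common rises was 1.38 in *pcf11-2* against 1.02 in *pcf11-ts2*, while that of the common falls was −1.05 and −1.06. In the mean of both alleles 254 features rose (3.99%) and 78 fell (1.22%). Of the 213 common features, 178 lay further from the reference in *pcf11-2*.

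**Figure D1:**
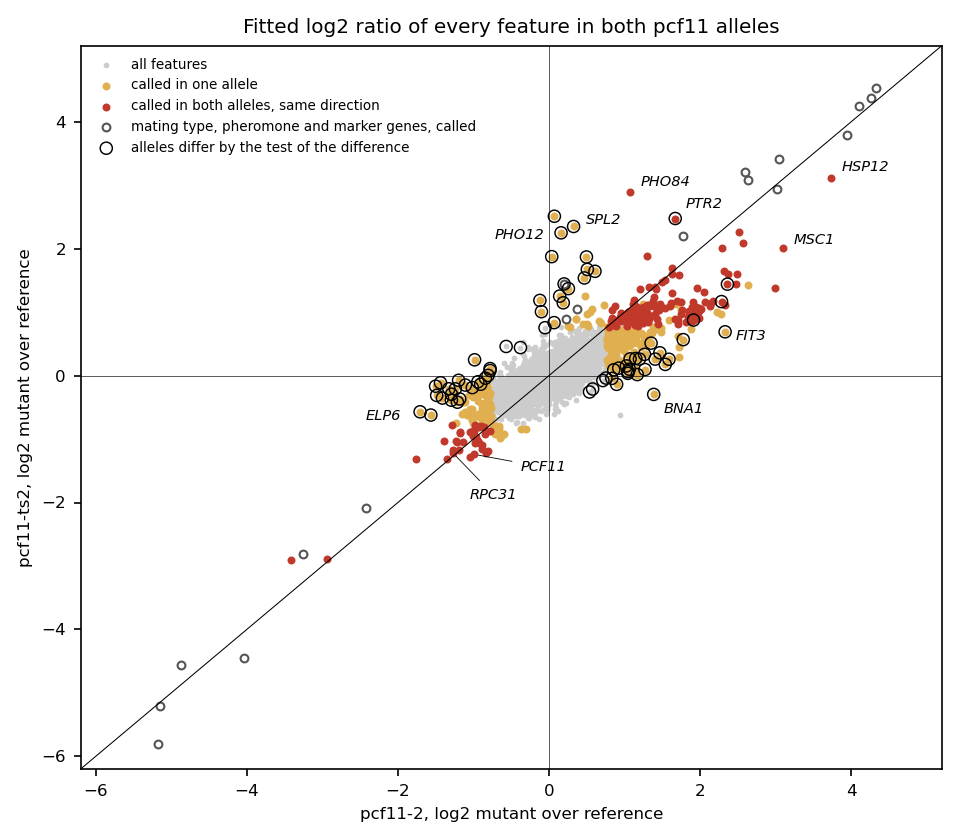
Fitted log2 ratio of mutant over reference for each of 6373 features in *pcf11-2* (x axis) and *pcf11-ts2* (y axis), with the diagonal of equal ratios. Red points are rises and falls common to both alleles, open grey points are the mating type and marker genes left aside, and circled points are the 70 features that differed between the alleles, such as *PHO12* and *SPL2* (higher in *pcf11-ts2*) and *FIT3* and *BNA1* (higher in *pcf11-2*).

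Most features that passed in only 1 allele did not pass the test of the difference between the alleles. Of 182 rises found only in *pcf11-2*, 22 were higher in that allele, and of 91 falls found only there, 22 were lower. Of 31 rises found only in *pcf11-ts2*, 15 were higher in that allele, and of its 13 own falls 0 were lower. Over all features, 29 were higher in *pcf11-2* than in *pcf11-ts2* (0.455%) and 41 lower (0.643%), and 1004 passed an unadjusted p under 0.05. Without replicate a or without replicate b of *ctk1*Δ in YPD, 116 features differed in place of 70 and the balance turned, with 71 higher in *pcf11-2* and 45 lower. With SC arrays only, 58 were higher and 44 lower, and with the deposited ratios 49 and 39. With the median of the 12 profiles as the baseline of a gene, in place of the reference, 206 features passed in *pcf11-2*, 78 in *pcf11-ts2* and 50 in both.

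Genes of the general stress response were prominent among the common rises. These genes are induced through the transcription factors Msn2p and Msn4p in slow growth, starvation and many forms of stress. *HSP12*, a small stress protein that protects membranes, had array values of 3.81 in *pcf11-2* and 3.04 in *pcf11-ts2*. In *sen1-1* it had 2.73 and 1.76, and the deletion arrays ran from 0.23 through 1.54 to 3.86. Both alleles were above *sen1-1*, and they overlapped the deletion mutants. The fitted ratios of *HSP12* were 3.73 and 3.12 (SE 0.42, limma adjusted p = 2.60e-05 and 2.39e-04), or 13.3-fold and 8.68-fold.

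Of 40 stress genes listed as Msn2p and Msn4p targets, 25 rose and 1 fell in *pcf11-2*, and 10 rose in *pcf11-ts2*, all 10 of them in both alleles, where 5.54%, 3.17% and 2.68% of all features rose. The count in *pcf11-ts2* was 16 without replicate a or without replicate b of *ctk1*Δ in YPD, with SC arrays only and with the deposited ratios. The median ratio of the list was 0.99 and 0.73, against 0.01 and 0.00 over all features. *MSC1* had 3.10 and 2.01, *NQM1*, a transaldolase, 2.98 and 1.38, *HXK1*, a hexokinase, 2.49 and 1.60, and *DDR2*, named for its induction by DNA damage, 2.47 and 1.44. The single fall was that of *ALD2*, an aldehyde dehydrogenase (−0.78 in *pcf11-2* and 0.08 in *pcf11-ts2*). In *sen1-1* 10 of the 40 rose as well, where 5.21% of all features did. In the mean of the deletion mutants 7 rose, with 28 of all features. Against the deletion mutants 10 were higher in the mean of the alleles, where 2.54% of all features were. Against the 3 deletion mutants of the robot protocol 3 were higher, with 109 of all features. Of the list, 6 genes were higher in the mean of the alleles than in *sen1-1*, where 115 of all features were (1.80%). Without the array of *pcf11-2*, or without replicate b of *sen1-1*, 1 of the 40 was higher, without replicate a of *sen1-1* 13 were, and without either array of *ctk1*Δ in YPD 11 were.

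The rises of the stress list included its genes of storage carbohydrate metabolism. Of 22 glycogen and trehalose genes, 9 rose and 1 fell in *pcf11-2*, against 5.54% and 2.09% of all features. In *pcf11-ts2* 3 rose, against 3.17%. Those 3 were *GPH1*, the glycogen phosphorylase (1.63 and 1.60), *GDB1*, the debranching enzyme (1.49 and 1.47), and *GSY2*, a glycogen synthase (0.94 and 0.93). The fall was that of *PGM1*, a phosphoglucomutase (−0.77 and −0.52), while its paralog *PGM2* had 1.68 and 1.13 and rose in *pcf11-2* alone. In the mean of the alleles 1 of the 22 was higher than in *sen1-1* and 2 than in the deletion mutants, where 1.80% and 2.54% of all features were. Against the 3 deletion mutants of the robot protocol 0 were higher, with a median difference of −0.01. With the median of the 12 profiles as baseline, the means of *GPH1* and *GDB1* were 0.73 and 0.58 and did not pass. Of 27 heat shock and chaperone genes only *HSP26* passed, in *pcf11-2* (1.58), and it had 0.88 in *pcf11-ts2*.

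Genes of glucose uptake and its control were a further group with common rises. Of 21 hexose transporter and hexokinase genes, 6 rose in *pcf11-2* and 4 in both alleles, against 5.54% and 2.68% of all features. The 4 were *HXT2*, *HXT6*, *MTH1* and *HXK1*, and *HXK1* is also one of the stress genes counted above. In the mean of the alleles 7 were higher than in *sen1-1*, against 1.80% of all features, and 3 of the 7 fell in *sen1-1* itself. *MTH1*, a repressor of hexose transporter genes that acts when glucose is low, had array values of 1.92 and 1.15. It was at −0.09 and −0.08 in *sen1-1* and between −0.37 and 0.45, with a median of 0.04, in the deletion arrays, so both alleles were above every other SC array. The mean of the alleles exceeded *sen1-1* by a log2 difference of 1.62 (SE 0.11, limma adjusted p = 2.29e-07), or 3.07-fold. *HXT2*, a high-affinity transporter, had fitted ratios of 1.91 and 0.87, and *HXT6*, whose probe cannot be separated from the near-identical *HXT7*, had 2.06 and 1.15.

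Enzymes that feed carbon into the tricarboxylic acid (TCA) cycle rose in both alleles. *PYC1*, a pyruvate carboxylase that makes oxaloacetate, had array values of 2.25 and 2.05, above the 1.62 and 1.06 of *sen1-1* and above the deletion arrays, which ran from 0.31 through 0.65 to 1.97. Its fitted ratios were 2.29 and 2.01 (limma adjusted p = 2.82e-06 and 2.00e-05), or 4.88-fold and 4.04-fold. *CIT1*, the mitochondrial citrate synthase, had array values of 1.61 and 1.44 against 0.15 and −0.08 in *sen1-1*, and at most 0.65 in a deletion array. *CIT2*, the peroxisomal citrate synthase, had 1.50 and 0.99, while *sen1-1* had −0.63 and −0.91 and the deletion arrays −0.71 to 0.33 with a median of −0.29. For *CIT2* the mean of the alleles was 4.05-fold higher than *sen1-1* (log2 difference 2.02, SE 0.16, adjusted p = 8.93e-07).

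Of 23 TCA cycle genes, 4 rose in each allele and they were the same 4, *PYC1*, *CIT1*, *CIT2* and *IDP2*, a cytosolic isocitrate dehydrogenase (1.30 and 0.99). Among all features 5.54% and 3.17% rose in the alleles, 2.68% in both, and 1.80% were higher than in *sen1-1*. Against *sen1-1*, 8 of the 23 were higher, of which 3 fell in *sen1-1* itself, such as *ACO1*, the aconitase, at −1.33 there and at −0.05 and 0.48 in the alleles. *MPC3*, a subunit of the mitochondrial pyruvate carrier, had array values of 2.04 and 1.34, and was between −0.38 and 0.59 on all *sen1-1* and deletion arrays. *ALD4*, the mitochondrial aldehyde dehydrogenase, had fitted ratios of 2.31 and 1.65. Of 34 genes of the respiratory chain and ATP synthase, 1 rose in *pcf11-2* (*CYC7*, a cytochrome c isoform, 0.95, with 0.89 in *pcf11-ts2*) and 0 in *pcf11-ts2*, where 14 passed an unadjusted p under 0.05.

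Transporters of peptides, amino acids and vitamins were another group of common rises. *PTR2*, the transporter of di- and tripeptides, had array values of 1.71 in *pcf11-2* and 2.44 in *pcf11-ts2*, above the 0.23 and 0.21 of *sen1-1* and above the highest deletion array (1.49). Its fitted ratios of 1.67 and 2.47, or 3.18-fold and 5.56-fold, differed between the alleles (log2 difference −0.80, SE 0.14, limma adjusted p = 8.90e-03). Of 20 amino acid and peptide permease genes, 5 rose in *pcf11-2*, 4 in *pcf11-ts2* and 3 in both, which were *PTR2*, *DIP5* (1.06 and 0.84) and *AGP2* (0.84 and 0.91). Among all features these shares were 5.54%, 3.17% and 2.68%. The call of *AGP2* in the mean of the alleles was lost with print-tip loess and with the deposited ratios. Of 21 vitamin genes, 6 and 4 rose, and the 4 were common: *SNZ1* and *SNO1*, which act together in vitamin B6 synthesis (*SNZ1* 2.56 and 2.09, *SNO1* 1.16 and 1.08), *VHT1*, the biotin transporter (1.28 and 1.00), and *BIO5*, a transporter in biotin synthesis (0.86 and 0.81). *SNZ1* and *SNO1* rose in *sen1-1* too, and *VHT1* was above all *sen1-1* and deletion arrays in both alleles. *BIO5*, with array values of 0.90 and 0.77, was not apart from the 1.02 and 0.81 of *sen1-1* or the deletion median of 0.88. *NCE103*, the carbonic anhydrase, had 2.37 and 1.60, and 1.95 and 1.45 on the *sen1-1* arrays.

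The common falls named here belong to different pathways. *PTC2*, a protein phosphatase, had the array values −1.34 and −1.33 in the alleles, −1.26 and −1.30 in *sen1-1*, and −2.46, −0.03 and 0.17 as the lowest, median and highest of the deletion arrays. Its fitted ratios of −1.35 and −1.32 did not pass the test against *sen1-1* (log2 difference −0.05, SE 0.10, limma adjusted p = 0.737). *RPC31*, a subunit of RNA polymerase III, was at −1.25 and −1.24 in the alleles but at 0.09 and 0.30 in *sen1-1* and between −0.72 and 0.04 in the deletion arrays. The alleles were 2.72-fold lower than *sen1-1* in *RPC31* (log2 difference −1.44, SE 0.11, adjusted p = 6.22e-07).

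*URA5*, an orotate phosphoribosyltransferase of pyrimidine synthesis, had array values of −1.21 and −1.05, against −0.03 and 0.04 in *sen1-1* and −0.25 to 0.11 in the deletion arrays. It thus lay below all other SC arrays in both alleles, and 2.20-fold below *sen1-1* (log2 difference −1.14, SE 0.09, limma adjusted p = 6.74e-07). *BNA7*, of the kynurenine pathway, had −1.22 and −1.04, *MMF1*, a mitochondrial matrix protein, −1.14 and −1.05, and *ALT2*, an alanine transaminase paralog, −1.29 and −0.78. The array values of these 3 genes were below all *sen1-1* and deletion arrays in both alleles. For *BNA7* this was narrow, with −1.04 in *pcf11-ts2* against −1.03 in the lowest deletion array and a deletion median of −0.69. *BNA7* did not pass against *sen1-1* (log2 difference −0.39) or against the deletion mutants (−0.64). *RKI1*, the ribose-5-phosphate ketol-isomerase, and *GPX2*, a glutathione peroxidase, fell in both alleles as well (−0.99 and −0.93, −1.0 and −0.88).

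Genes that set the *pcf11* alleles apart from both *sen1-1* and the deletion mutants were found by testing the mean of the alleles against each. Against *sen1-1*, 115 features were higher (1.80%) and 219 lower (3.44%), and against the deletion mutants 162 were higher (2.54%) and 45 lower (0.706%). In both comparisons 49 were higher (0.769%) and 11 lower (0.173%). *PHO84*, the high-affinity phosphate transporter, led the 49. Its array values were 1.23 in *pcf11-2* and 2.74 in *pcf11-ts2*, against −1.55 and −1.51 in *sen1-1* and −3.32, −2.43 and 0.06 as the lowest, median and highest in the deletion mutants. In most other mutants the gene was thus below the reference, and in the alleles above it. The difference from *sen1-1* was 11.4-fold (log2 3.52, SE 0.31, adjusted p = 3.08e-06). The reference channel of *PHO84* was itself unequal, with an intensity of 247 on the *pcf11-2* array and 668 on the *pcf11-ts2* array, against 1056 and 5169 for the mutants, and its part in the ratios was not tested.

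**Figure D2:**
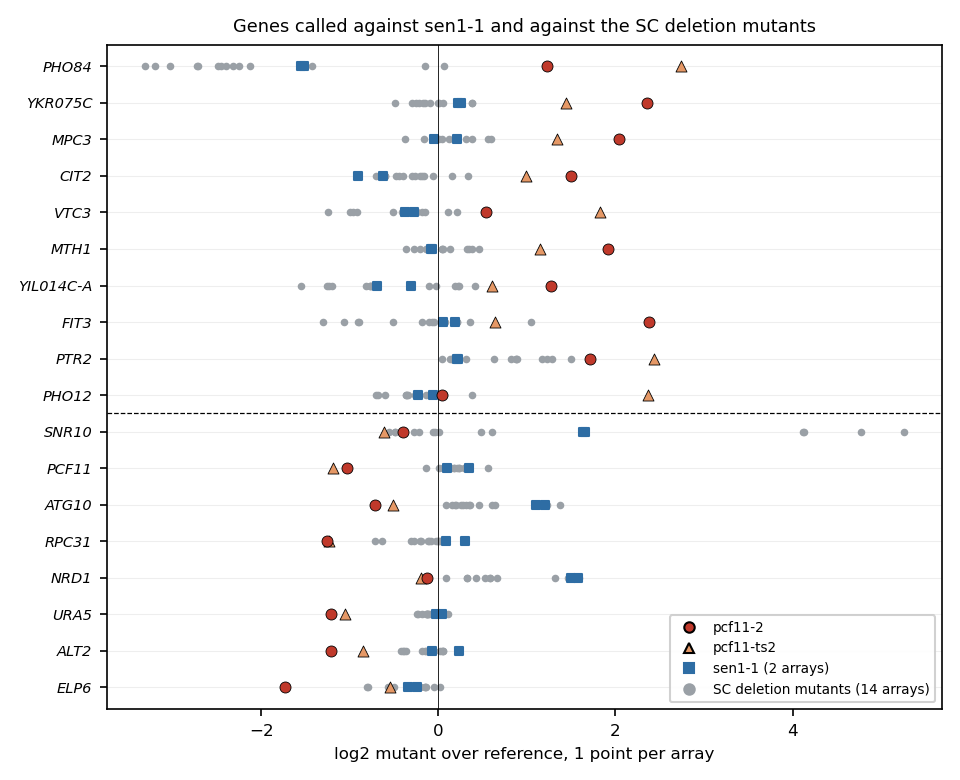
Array log2 ratios of mutant over reference of the named genes for which the mean of the *pcf11* alleles differed from both *sen1-1* and the deletion mutants, with 1 point per array. The 10 genes above the dashed line were higher in the mean of the alleles, led by *PHO84* (1.23 and 2.74). The 8 below it were lower, among them *RPC31* and *URA5*, where both alleles lie left of every other array. Some of these genes rest mainly on 1 allele. Against *sen1-1*, the log2 difference of *PHO12* was 2.40 with *pcf11-ts2* alone and 0.31 with *pcf11-2* alone. With *pcf11-2* alone and *pcf11-ts2* alone, *FIT3* had 2.21 and 0.57, and *ELP6* had −1.42 and −0.28.

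*YKR075C*, an open reading frame of unknown function, was at 2.36 and 1.44 in the alleles and between −0.49 and 0.38 on all *sen1-1* and deletion arrays. *YIL014C-A* had fitted ratios of 1.22 and 0.67, and of the 2 alleles only *pcf11-2* passed against the reference. Among the lower genes, *SNR10*, *ATG10* and *NRD1* did not pass the fold minimum in either allele. *ATG10*, of autophagy, had array values of −0.72 and −0.52, with 1.21 and 1.10 in *sen1-1* and 0.09, 0.33 and 1.38 as the lowest, median and highest of the deletion arrays. *NRD1*, which encodes an NNS subunit and limits its own expression, had array values of −0.13 and −0.20 in the alleles and 1.50 and 1.58 in *sen1-1*. *SNR10*, a snoRNA, had −0.40 and −0.61, against 1.64 and 1.65 in *sen1-1* and up to 5.26 in a deletion array. Against the 3 deletion mutants whose RNA was isolated by the robot, 109 features were higher and 63 lower. With *pcf11-2* alone 335 features in all differed from the deletion mutants, and with *pcf11-ts2* alone 136, in place of 207.

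Genes that lie behind snoRNAs report on early termination, since transcripts that run past a snoRNA reach them. In the annotation of assembly R64, 47 genes were the first gene on the same strand within 2000 bp behind a snoRNA, and 43 of them were measured. In *pcf11-2*, 2 of them rose and 1 fell, and in *pcf11-ts2* 0 rose or fell by limma, where 14 passed an unadjusted p under 0.05. Among all features 5.54% rose and 2.09% fell in *pcf11-2*, near the shares in this list, and 3.17% and 0.863% in *pcf11-ts2*. In *sen1-1*, 20 of the 43 rose and 1 fell, against 5.21% and 1.29% of all features. Against *sen1-1*, 21 of the 43 were lower in the mean of the alleles and 3 higher, where 3.44% and 1.80% of all features were. Of the 17 measured genes of the corresponding list of the study, which had been chosen on these arrays, 0 rose or fell in either allele, 9 and 3 passed an unadjusted p under 0.05, and 16 rose in *sen1-1*.

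*USE1*, a protein of vesicle transport encoded behind a snoRNA, had array values of 0.57 and 0.09 in the alleles, 4.72 and 5.24 in *sen1-1*, and −0.28, 0.05 and 1.87 in the deletion arrays. The alleles lay among the deletion mutants and far below *sen1-1*, by 25.1-fold (log2 difference −4.65, SE 0.10, limma adjusted p = 7.70e-12). *TRS31*, a subunit of the TRAPP complex, had fitted ratios of −0.45 and −0.31 against 3.74 in *sen1-1*, and *HEM4*, of heme synthesis, had −0.28 and −0.26 against 3.28. *YDR042C* (0.97) and *ICY1* (0.78) were the 2 that rose in *pcf11-2*, with 0.56 and 0.66 in *pcf11-ts2*, and *HNM1*, the choline transporter, was the gene that fell (−0.84, with −0.30 in *pcf11-ts2*). *YDR042C* had 4.16 in *sen1-1*, and *ICY1* was below the reference there, at −0.59 and −0.62.

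**Figure D3:**
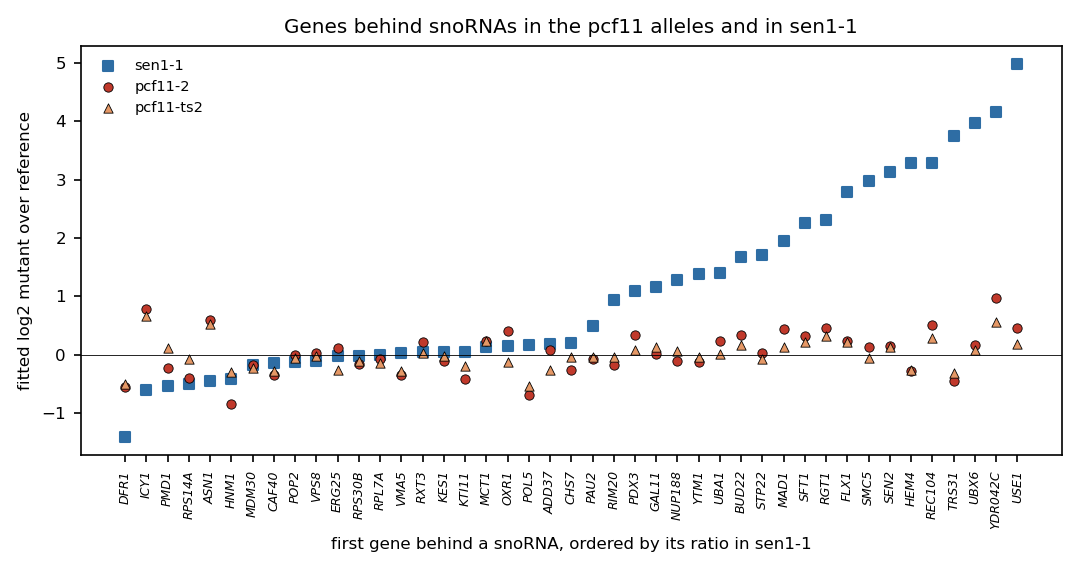
Fitted log2 ratio of mutant over reference of the first genes behind snoRNAs that were measured, ordered by their ratio in *sen1-1* (blue squares), with *pcf11-2* (red circles) and *pcf11-ts2* (orange triangles). At *USE1* the ratio is 4.98 in *sen1-1*, 0.47 in *pcf11-2* and 0.19 in *pcf11-ts2*.

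Protein-coding genes that NNS attenuates near their start showed a similar split. Of 9 such genes, 2 rose in *pcf11-2*, *GSC2*, a subunit of glucan synthase (2.28), and *TIS11*, an mRNA-binding protein of iron limitation (1.06), and 1 in *pcf11-ts2*, *GSC2* (1.17). Among all features, 5.54% rose in *pcf11-2*, 3.17% in *pcf11-ts2* and 5.21% in *sen1-1*, and 3.44% were lower in the mean of the alleles than in *sen1-1*. In *sen1-1* 6 of the 9 rose. Against *sen1-1*, 5 were lower in the alleles, among them *IMD2*, an IMP dehydrogenase with array values of −0.50 and −0.27 against 1.7 and 1.49, and *URA8*, a CTP synthase with 0.36 and 0.28 against 2.41 and 2.24. Of 7 genes with weak polyA sites listed by the study, 2 fell in *pcf11-2* and 1, *PTC2*, in both, against 2.09% and 0.659% of all features. All 7 ratios were negative in both alleles, with a median of −0.49 and −0.40 against −0.43 in *sen1-1*, and 7 and 6 of them passed an unadjusted p under 0.05. That list was chosen by the study on these arrays and is no independent evidence.

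The clearest differences between the alleles concerned phosphate. When phosphate is scarce, the factor Pho4p induces phosphate transporters, secreted phosphatases and the vacuolar transporter chaperone (VTC) complex that makes polyphosphate. Of 14 phosphate starvation genes, 8 rose in *pcf11-ts2* and 2 in *pcf11-2*, against 3.17% and 5.54% of all features. Of the 14, 6 were higher in *pcf11-ts2* than in *pcf11-2*, where 0.643% of all features were. All 14 had positive ratios in *pcf11-ts2*, with a median of 0.88 against 0.20 in *pcf11-2*. Over 30 other settings the number of differing genes ran from 4 to 7.

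*SPL2*, which lowers low-affinity phosphate uptake, had an array value of 0.33 in *pcf11-2* and 2.34 in *pcf11-ts2*. It was 0.34 and 0.33 in *sen1-1* and between −0.89 and 0.14, with a median of −0.73, in the deletion arrays, so that only *pcf11-ts2* stood out. The intensity of the *SPL2* spots was 744 for *pcf11-ts2* against 83.6 for its reference, and 209 for *pcf11-2* against 85.7. Its fitted ratio was 4.07-fold higher in *pcf11-ts2* (log2 difference −2.02, SE 0.14, limma adjusted p = 6.93e-06). *PHO12*, a secreted acid phosphatase whose probe cannot be separated from *PHO11*, had array values of 0.04 and 2.36, with −0.06 and −0.23 in *sen1-1* and at most 0.37 in a deletion array. It was 4.26-fold higher in *pcf11-ts2* (log2 difference −2.09, SE 0.25, adjusted p = 5.79e-04).

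The VTC genes showed the same order of the alleles. *VTC3* had array values of 0.54 and 1.82 and a log2 difference of −1.37 (SE 0.16, limma adjusted p = 4.79e-04). *VTC1* had 0.25 and 1.14, with a difference of −1.11, and this call was lost in the fit without the dye term, which is also the replicate block. *VTC4* had fitted ratios of −0.05 and 0.75, and *PHO89*, a sodium-phosphate cotransporter, 0.61 and 1.64, and both differed as well. *PHO84* rose in both alleles, and its difference of −1.82 did not pass (SE 0.46, adjusted p = 0.052). *PHM8*, a phosphatase, was the other gene of the list to rise in both, with 0.96 and 0.85.

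**Figure D4:**
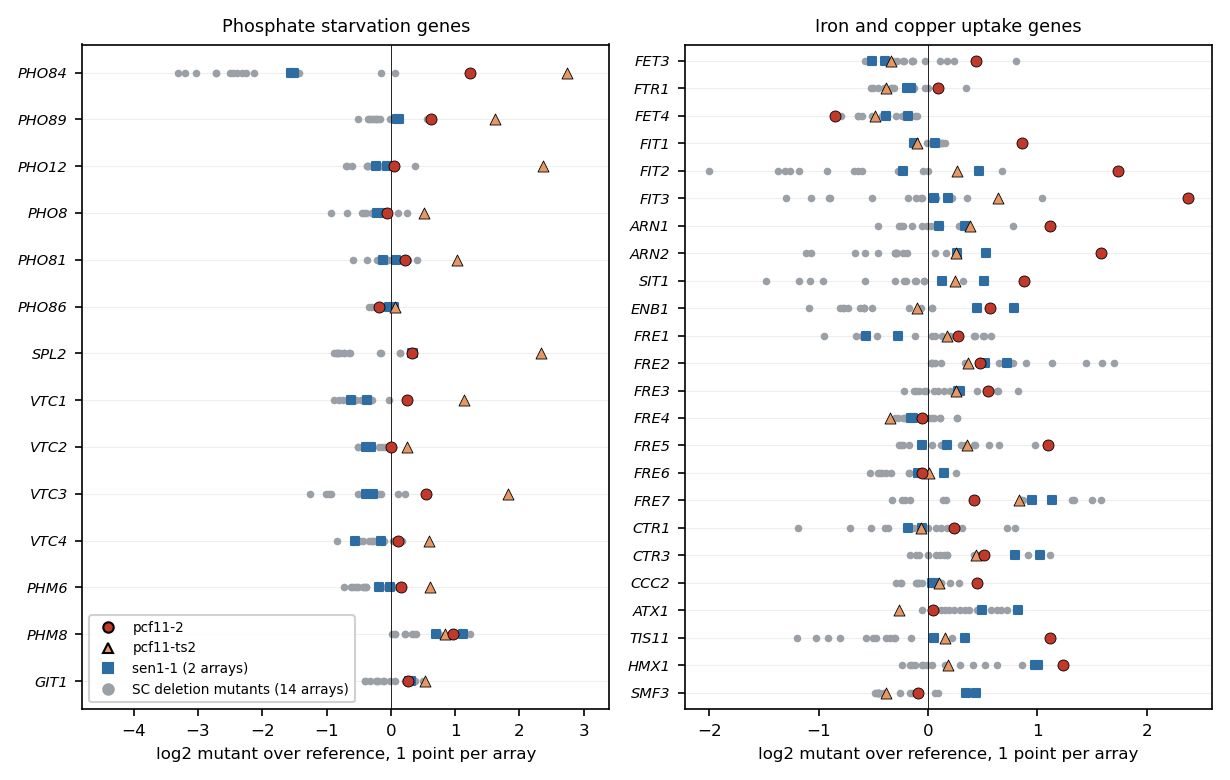
Array log2 ratios of mutant over reference for the phosphate starvation genes (left) and the iron and copper uptake genes (right), with 1 point per array. In the left panel *pcf11-ts2* (triangles) is furthest right for *PHO84* (2.74), *PHO12* (2.36) and *SPL2* (2.34), and in the right panel *pcf11-2* (circles) is furthest right for *FIT3* (2.38) and *FIT2* (1.74).

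For iron uptake the order of the alleles was reversed. Iron limitation induces, through Aft1p, cell wall mannoproteins that hold siderophores (FIT genes), siderophore transporters (ARN genes and *SIT1*) and reductases (FRE genes). Of 24 iron and copper uptake genes, 9 rose and 1 fell in *pcf11-2*, 1 rose in *pcf11-ts2*, and 0 were common to both. Among all features 5.54% rose and 2.09% fell in *pcf11-2*, 3.17% rose in *pcf11-ts2*, and 2.68% rose in both. The 1 rise in *pcf11-ts2* and the 0 common rises among 24 genes are thus near the shares at large. Of the 24, 5 were higher in *pcf11-2* than in *pcf11-ts2* (*FIT1*, *FIT3*, *ARN2*, *FRE5* and *HMX1*), where 0.455% of all features were. With arrays centred on the median only, in place of loess, 3 genes of the list were higher, and with either array of *set2*Δ left out 8 were.

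*FIT3* had an array value of 2.38 in *pcf11-2* and 0.64 in *pcf11-ts2*, against 0.18 and 0.06 in *sen1-1* and −1.30, −0.09 and 1.05 in the deletion arrays. Only *pcf11-2* lay above all others. Its fitted ratio was 3.12-fold higher in *pcf11-2* (log2 difference 1.64, SE 0.36, limma adjusted p = 2.88e-02). *ARN2* had array values of 1.59 and 0.26 and a difference of 1.33 (SE 0.31, adjusted p = 3.82e-02), a call that was lost in 9 of 30 other settings, 8 of which left out 1 array of another mutant. *FIT1* had array values of 0.86 and −0.11 and a difference of 1.03 (SE 0.23, adjusted p = 3.09e-02). *FIT2* had a difference of 1.43, which did not pass (SE 0.39, adjusted p = 0.0699). *FRE7*, a copper-regulated reductase, was the 1 gene that rose in *pcf11-ts2* (0.81, with 0.44 in *pcf11-2*), and *FET4*, a low-affinity iron transporter, was the gene that fell in *pcf11-2* (−0.83, with −0.50 in *pcf11-ts2*).

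Other genes that were higher in *pcf11-2* include enzymes of NAD synthesis from tryptophan. *BNA1* had array values of 1.38 in *pcf11-2* and −0.29 in *pcf11-ts2*, with 0.86 and 0.42 in *sen1-1* and −0.70 to 0.37 in the deletion arrays. It differed by 3.21-fold (log2 difference 1.68, SE 0.18, limma adjusted p = 2.36e-04). *BNA2*, the first enzyme of that pathway, had 1.79 and 0.55 and a difference of 1.21 (adjusted p = 7.92e-03). *HXT2* was 2.05-fold and *GSC2* 2.17-fold higher in *pcf11-2*, both also rises common to the alleles. *CDA1*, a chitin deacetylase otherwise made in spores, had fitted ratios of 1.27 and 0.09, *NCA3* 1.54 and 0.18, *SNO4* 1.47 and 0.36, *HPF1*, a cell wall mannoprotein, 1.05 and 0.06, and *YNR064C* 1.04 and 0.03. Of 30 other settings, 11 ended the call of a difference for *NCA3* and 16 that for *HPF1*, mostly with 1 array of another mutant left out.

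The genes with the largest differences in the other direction, phosphate genes aside, were mostly falls of *pcf11-2* that *pcf11-ts2* did not show. *ELP6*, a subunit of the Elongator complex that modifies tRNA, had array values of −1.73 and −0.55, against −0.34 and −0.24 in *sen1-1* and −0.81 to 0.02 in the deletion arrays. It was 2.20-fold lower in *pcf11-2* (log2 difference −1.14, SE 0.12, limma adjusted p = 2.83e-04), and of 14 Elongator and tRNA modification genes it was the only one that fell. *GOS1*, a Golgi SNARE protein, had −1.46 and −0.21, *COQ10*, needed for the function of coenzyme Q, −1.50 and −0.30, and *MST28*, whose paralog *MST27* is nearly identical, −1.44 and −0.11. *YFH7* (−0.99 and 0.25) and *YER010C* (−1.33 and −0.21) had similar fitted ratios. *AAP1*, an aminopeptidase, was a rise of *pcf11-ts2* alone, at 1.13 against −0.07 in *pcf11-2*, and was 2.47-fold higher there.

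In the remaining lists few genes passed with the fold minimum. Of 55 mitochondrial ribosomal protein genes, 7 rose in *pcf11-2* and 0 in *pcf11-ts2*, although 52 and 53 had positive ratios and 50 and 37 passed an unadjusted p under 0.05. Over all features 5.54% and 3.17% rose, and 2.09% and 0.863% fell. The count of 7 was 12 with a normexp offset of 10, 11 with median normalization or print-tip loess, and 44 without the fold minimum. The median ratio of these 55 genes was 0.47 and 0.33. *MRP20* (1.06 and 0.63) and *MRPL51* (0.97 and 0.51) had the largest of these. Of 126 cytosolic ribosomal protein genes 1 fell, in *pcf11-2*, with a median of −0.15 and −0.10, and of 82 ribosome biogenesis genes 0 passed in either allele, with a median of −0.11 in both and an unadjusted p under 0.05 for 11 and 3. Of 38 cell wall genes, 6 rose in *pcf11-2* and 4 in both, with *PRM5*, a gene of the cell integrity pathway, at 1.41 and 1.39. Of 34 genes on a list of amino acid synthesis and Gcn4p targets, 4 rose in *pcf11-2* and 3 in *pcf11-ts2*. The 3 were *LEU4* and the vitamin B6 genes *SNZ1* and *SNO1*, which were already counted among the vitamin genes. Of 26 sulfur amino acid genes, 3 fell in *pcf11-2* and 1 in *pcf11-ts2* (*SAM2*, an S-adenosylmethionine synthetase, −0.79 and −0.87, whose call in the mean of the alleles was lost with print-tip loess and the deposited ratios), and the *MET17* deletion of BY4741 cannot be told apart from the alleles here.

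**Figure D5:**
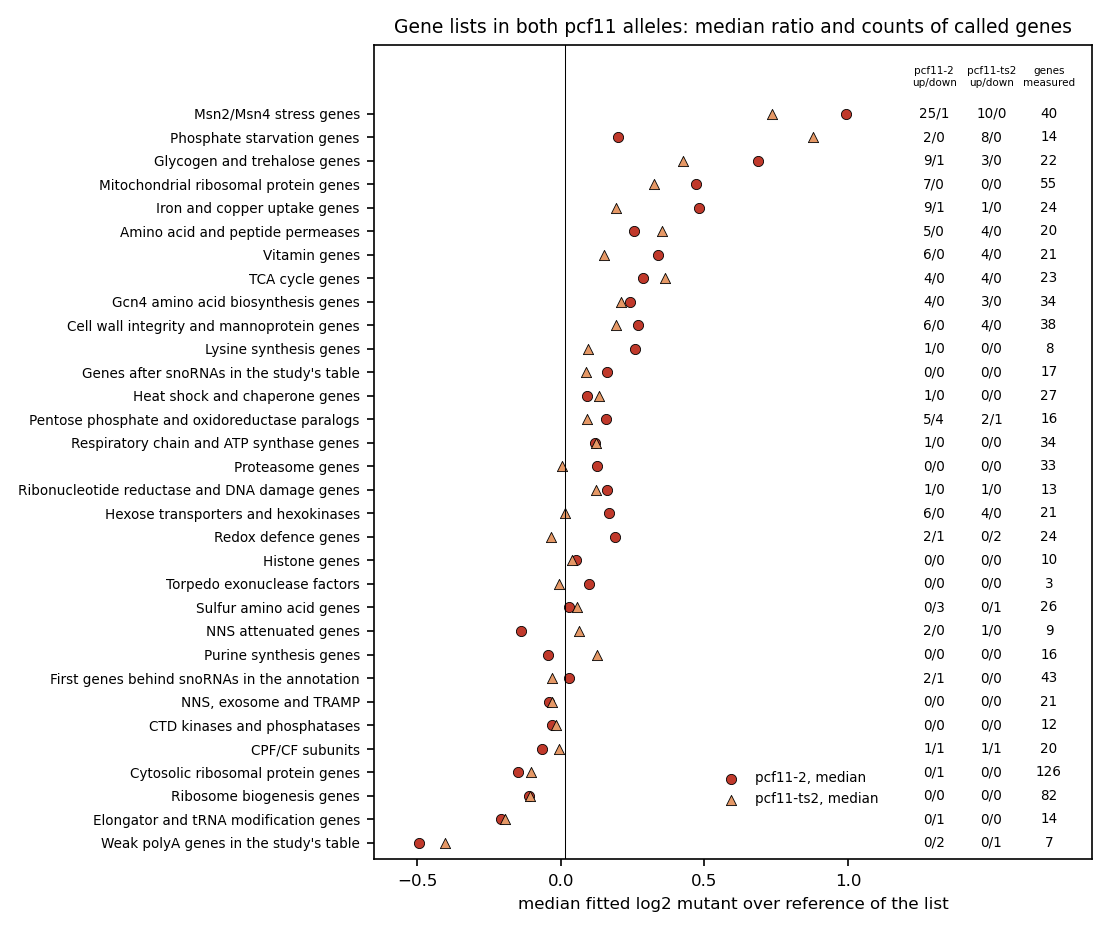
Median fitted log2 ratio of mutant over reference of each gene list in *pcf11-2* (circles) and *pcf11-ts2* (triangles), with the numbers of genes that rose and fell at the right and the median of all features as the vertical line. The Msn2/Msn4 stress genes (0.99 and 0.73) and, in *pcf11-ts2* only, the phosphate starvation genes (0.88) lie furthest to the right.

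Among the rises, features without a gene symbol were frequent. They make up 16.7% of all features, but 111 of the rises in *pcf11-2* (31.4%) and 80 of those in *pcf11-ts2* (39.6%), and 72 of the common rises. The named genes that rose in both alleles more often had a neighbour upstream on the same strand in the annotation of assembly R64 than genes at large, in 63.5% of cases (61 of 96) against 47.9% of 5267 genes. The share was 54.4% for the rises of *pcf11-2*, 60.9% for those of *pcf11-ts2*, 52.2% for those of *sen1-1* and 41.7% for the common falls. Of these 61 genes, 2 had a same-strand upstream neighbour that itself rose in both alleles. Upstream neighbours on the other strand were not counted. These shares are given as a description, since neighbouring genes are not independent samples.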

How the data were processed

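Two-colour arrays of 70-mer probes were used, of which the authors deposited scanner intensity values per spot (foreground and local background, without normalization) and log2 ratios per spot that they had normalized with limma (version 2.12.0 named for 6 arrays, none for 16). Intensities were corrected with normexp (offset 50) and normalized by loess over 12776 gene spots of 15552 in limma 3.58.1 (R 4.3.3). Ratios were turned to mutant over reference by the dye labels, and the 2 spots of a probe and the probes of a gene were averaged. All 22 arrays were fitted by a linear model that held a coefficient per profile (12 in all) and a term for dye, giving 9 residual and 3.7 prior degrees of freedom. Replicate a has the mutant in Cy3 and b in Cy5 according to the labels, so the dye term is the replicate block. For the 10 profiles with 2 arrays (9 mutants, 1 of them in both media), these correlated with r = 0.529 to 0.967. Arrays were compared with 1 reference RNA, which is 1 control sample, and their number limits the precision. Features counted as above background at 2.6 SD, which all named genes were on both arrays, and none of these was saturated.

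Gene names came from the platform annotation, updated through assembly R64. Of 6388 probes 5326 had 1 symbol and 1062 none. The genes named were *PCF11* and the CPF/CF subunits, the 15 largest common rises and falls, the 12 largest differences between the alleles in each direction, up to 10 in each direction that differed from *sen1-1* and the deletion mutants, and the 4 members furthest from the reference in each list. Other list members were named after their values were seen. The alleles and the gene lists were chosen with earlier results of these data known. Alternatives covered background correction, normalization, the deposited ratios, the dye term, SC arrays only, centring, the fold minimum and each array left out.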

Additional observations from a re-analysis of the deposited data

Results flagged for a closer look

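The 2 alleles were set against the same reference, and the ratio differed between them by the limma test of the difference for 29 features that were higher in *pcf11-2* and 41 that were lower. Differences are *pcf11-2* minus *pcf11-ts2* on the log2 scale. The 12 largest in favour of *pcf11-2* were those of *BNA1* (1.68), *FIT3* (1.64), *NCA3* (1.36), *ARN2* (1.33), *BNA2* (1.21), *CDA1* (1.17), *GSC2* (1.12), *SNO4* (1.11), *HXT2* (1.04), *FIT1* (1.03), *YNR064C* (1.01) and *HPF1* (0.98). The 12 largest in favour of *pcf11-ts2* were those of *PHO12* (−2.09), *SPL2* (−2.02), *VTC3* (−1.37), *GOS1* (−1.33), *MST28* (−1.32), *AAP1* (−1.31), *YFH7* (−1.23), *COQ10* (−1.17), *ELP6* (−1.14), *MST27* (−1.12), *YER010C* (−1.12) and *VTC1* (−1.11). The alleles also differ in dye and culture, with 1 array each, so these and the allele cannot be told apart beyond the dye effect that the fit takes out.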

How the results depend on the processing

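Counts of features were 486 for *pcf11-2*, 257 for *pcf11-ts2*, 213 for both, 332 for their mean, 70 between the alleles, 334 against *sen1-1* and 207 against the deletion mutants. Without a fold minimum they were, in this order, 2394, 1375, 1053, 2865, 211, 2126 and 2414. Centred on the median of the 12 profiles, the first 4 were 206, 78, 50 and 116, and 34 of 71 named calls were kept; centring also removes what many profiles share. There *YHB1*, with −0.81 in the mean of the alleles, had 0.010. With single arrays left out the ranges were 478 to 499, 254 to 267, 211 to 222, 257 to 486 (lowest without *pcf11-2*, highest without *pcf11-ts2*), 62 to 116, 332 to 370 and 136 to 335. Without the replicate block (dye term) the counts were 477, 258, 207, 332, 61, 334 and 204.

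All other settings kept the 7 counts within 1.5 times. The share of rises moved from 72.6% to 59.8% in *pcf11-2* with median normalization, from 78.6% to 64.1% in *pcf11-ts2* and from 80.3% to 64.0% in both with centring, and from 78.3% to 63.4% against the 3 deletion mutants of the robot protocol. Without a fold minimum it was 54.4%, 56.9% and 57.5% for the alleles and both. Between the alleles it was 41.4%, against 55.7% with the deposited ratios, 56.9% with SC arrays only and 61.2% without either *ctk1*Δ array in YPD. Of 131 named gene results, 72 were called under all alternatives that gave a value. The calls between the alleles of *FIT3*, *GSC2*, *NCA3*, *ARN2*, *HPF1* and *YNR064C* were lost with median normalization, while the lowest log2 differences over all settings stayed at 1.37, 1.03, 1.29, 1.24, 0.85 and 0.78. Those of *GSC2* and *HPF1* were also lost with an intensity trend, and those of *ARN2*, *NCA3* and *HPF1* in 8, 10 and 14 settings with 1 array left out. The cause was not tested.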

Other observations

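Further groups were put together after the values had been seen, and their counts are a description. Among all features 2.68% rose and 0.659% fell in both alleles. Of 10 genes linked to the retrograde response, by which the nucleus responds to impaired mitochondria, 3 rose in both alleles: *CIT2* (1.39 and 1.10), *DLD3*, a lactate dehydrogenase of the cytosol (1.12 and 0.95), and *PDH1* (1.76 and 1.04). The regulators *RTG1*, *RTG2* and *RTG3* had ratios between −0.05 and 0.30. Of 12 genes of the glyoxylate cycle, gluconeogenesis and their regulation, *CIT2* and *ADR1*, a transcription factor (0.96 and 0.95), rose in both, while *ICL1*, *PCK1* and *FBP1* had ratios between −0.03 and 0.20. *CIT2* is a member of both groups and of the TCA cycle list, so these counts are not separate.

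Of 12 measured subunits of RNA polymerase III, *RPC31* fell in both alleles and the other 11 had ratios of −0.41 to 0.12. Of 8 pyrimidine synthesis genes, *URA5* fell in both, and the other 7 did not pass in either allele. Its paralog *URA10* had 0.48 and −0.07, *URA4* −0.54 and −0.03, and *URA1* −0.46 and −0.04. Of 7 genes of NAD synthesis from tryptophan, *BNA1* and *BNA2* rose in *pcf11-2*, *BNA7* fell in both alleles, and *BNA5* fell in *pcf11-ts2* (−0.84, with −0.30 in *pcf11-2*). Among all features 5.54% rose in *pcf11-2*, 0.863% fell in *pcf11-ts2* and 0.659% fell in both.

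Of 20 pheromone response genes, left aside above, 3 rose in *pcf11-ts2* and 0 in *pcf11-2*, where 9 passed an unadjusted p under 0.05 by limma. Among all features 3.17% rose in *pcf11-ts2* and 5.54% in *pcf11-2*, so 0 of 20 in *pcf11-2* is near the share at large. *AGA1*, the anchor of a-agglutinin, had 1.44 in *pcf11-ts2* and 0.20 in *pcf11-2* and differed between the alleles (−1.24).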
